A study of Danio rerio with 12 samples.

Results

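The most open promoters of wildtype zebrafish embryos were examined in ATAC-seq data from supt16h mutants and their wildtype siblings. Accessibility was read in a stretch of 4000 bp around each annotated start site of transcription, called a window here. The most open windows were taken as those whose log2 signal, averaged over the 6 wildtype libraries, was at least 10. They numbered 366 of 15674 windows (2.34%), and all 366 lay among the 15431 windows with enough signal to be tested. They named 358 different genes or gene groups and fell into 325 separate loci, since neighbouring start sites share a window. The wildtype signal chose these windows, so their wildtype levels are a description. A difference of mutant minus wildtype is pulled downward by that choice.

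ATAC-seq uses the Tn5 transposase, which inserts sequencing adapters where DNA is not wrapped by nucleosomes or covered by other proteins. The start sites of active genes are usually depleted of nucleosomes, and the most open ones in many tissues belong to genes used by most cells or held ready for fast induction. The protein made from supt16h is a subunit of the histone chaperone FACT, which loosens nucleosomes and rebuilds them while polymerases pass.

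The mutants were supt16h-/- embryos and were compared with wildtype siblings, both collected at 32 hours post fertilization. The labels name no allele, promoter or transgene, and do not say what the mutation does to the protein. Whole embryos were deyolked and dissociated, and 50000 cells went into each library. Each group held 3 biological replicates in 2 technical repeats, 6 libraries a group. The sources do not say whether the biological replicates came from separate clutches, so the p-values measure the spread between these samples, which may be partly technical. In whole embryos, a smaller share of cells with an open promoter and less opening per cell cannot be told apart. Signal at a start site cannot check the genotype. Directions follow the names of the library columns.

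The library values are normalized log2 signal, and the read depth behind them is unknown. The median over all tested windows was alike in the 12 libraries, 7.35 to 7.43. In the wildtype siblings the most open windows had a median of 10.28, against 7.40 over all tested windows. Their replicates were close. The median SD between 3 biological replicates was 0.0946 in mutants and 0.0749 in wildtype siblings over the most open windows, and 0.0931 and 0.0791 over the other tested windows.

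The highest windows belonged to ribosomal RNA, an AP-1 gene and a mixed group of other genes. A pair of overlapping windows at zgc:158463, which the RefSeq gene table lists as ribosomal RNA, stood at the top (chromosome 5, 825000 to 829000 and 825887 to 829887, GRCz10). They were the only 2 ribosomal RNA windows in the table. The mutant replicates stood at 11.87, 12.01 and 12.16, and the wildtype replicates at 12.10, 12.08 and 12.62. Wildtype replicate 3 stood apart, and the difference of -0.25 ± 0.15 (SE) was not called (limma adjusted p = 0.344). Genes for ribosomal RNA occur in many copies, and reads from other copies may be counted in these windows.

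The highest protein-coding window was that of junbb, which encodes a Jun subunit of the AP-1 transcription factor (chromosome 3, 7768219 to 7772219). Its mutant replicates stood at 12.35, 12.37 and 12.41, and its wildtype replicates at 11.77, 11.90 and 11.90. The groups did not overlap, and the mutants were 1.43-fold higher (0.52 ± 0.07 on the log2 scale, SE, adjusted p = 0.000116). Next came cdc14b, a phosphatase of the cell cycle (11.79 in mutants, 11.63 in wildtype), and rimkla (11.66 and 11.52). They were followed by ptmab, which encodes the histone-binding protein prothymosin alpha (11.74 and 11.36), and zgc:153115 (11.57 and 11.33). arid4a, of the ARID chromatin proteins, stood at 11.30 in both groups. The window shared by LOC564840 and purba (11.32 and 11.28) and the microRNA gene mir7a-3 (11.35 and 11.28) completed the 10 highest. Of these, junbb and ptmab were called higher in mutants (ptmab 0.37 ± 0.07, adjusted p = 0.0022), and the others were not called.

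The threshold cut through a continuous range. Just inside it stood LOC107195253 at a wildtype mean of 10.005, csnk1a1 at 10.006, cttn at 10.007 and aqp11 at 10.008. Just outside stood pik3r3b and glcci1 at 9.998, tlk1a at 9.997 and cry1bb at 9.996. At 54 of the 366 windows a wildtype replicate was below 10. In the mutants 526 windows had a mean of at least 10, and they included 352 of the 366.

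By share of each gene list, the most open windows served chromatin, transcription and RNA handling more than mitochondrial and energy metabolism. Genes were grouped by symbol, and 198 of the 366 windows fell in a list. The other 168 fell in none. They include metabolic genes such as odc1, so the lists do not cover all of metabolism. Histones and chromatin proteins supplied 36 of their 218 tested windows (16.5%), where 2.37% of all tested windows were this open. Transcription factors and co-regulators outside the homeobox and sox lists supplied 47 of 641 (7.33%). The shares were 5.21% for microRNA genes (16 of 307), 5.14% for cell cycle and replication (9 of 175), 4.96% for splicing and RNA-binding proteins (12 of 242) and 4.59% for signalling genes (35 of 762). The 16 microRNA windows include 6 overlapping ones of the mir17-92 cluster, so they are not 16 independent loci.

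Genes that are strongly transcribed in most cells were not all in this class. Of 93 windows at ribosomal protein genes, rpl31 alone was a member, and its window is shared with cnot11. Of 239 windows of mitochondrial and energy metabolism 1 was a member (0.418%), pkma, which encodes a pyruvate kinase. None of 49 hox windows was a member. These shares describe where the level rule fell, and no set test was made.

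**Figure D1:**
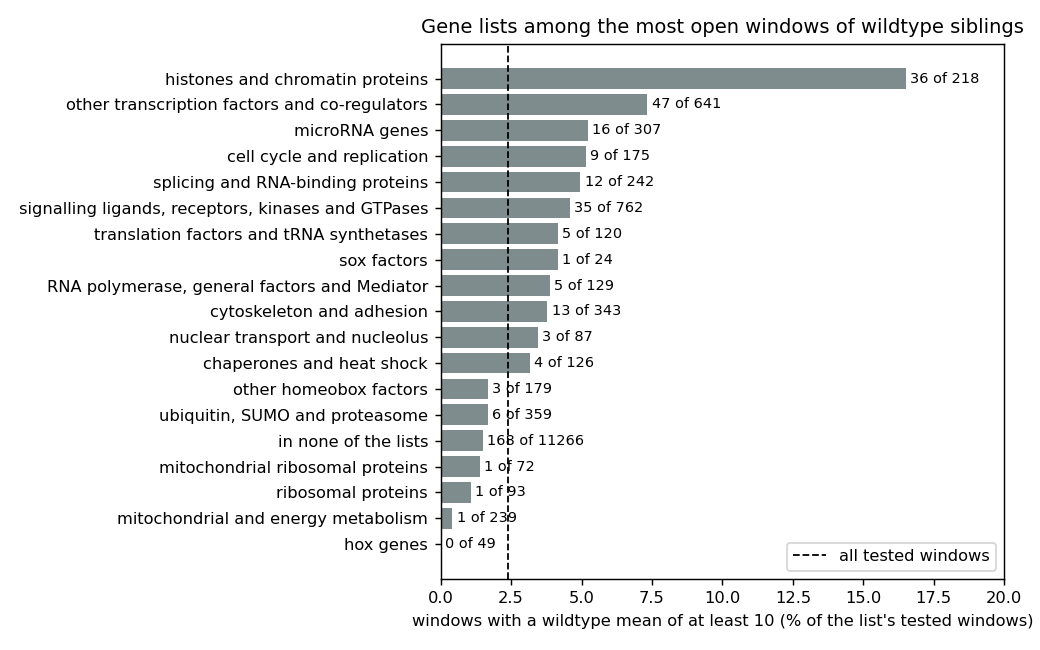
Share of each gene list's tested windows whose wildtype mean log2 signal was at least 10 (x axis, percent), one bar per list with the number of windows beside it, and the share over all tested windows as a dashed line at 2.37%. Histones and chromatin proteins stood highest at 16.5%, and hox genes had none.

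Several smaller gene families were looked at because their members stood out, so the choice was made after their values were seen. Their windows may also be counted in the lists above, so counts of different lists overlap. Of 16 windows at histone genes 8 were members, led by h3f3a, a gene for the replacement histone H3.3, at 11.43 in mutants and 11.23 in wildtype. Of 13 windows of the high mobility group genes, which encode small chromatin proteins that bind DNA or nucleosomes, 6 were members. Of 31 windows at immediate early genes, which are induced within minutes of a stimulus without new protein synthesis, 15 were members (48.4%). Circadian clock genes supplied 6 of 42 windows (14.3%) and Notch pathway genes 7 of 45 (15.6%). The 6 microRNA genes of the mir17-92 cluster were all members.

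The most open windows more often held several start sites than the rest, a description with no test. Another annotated start site lay in the window at 76 of the 366 (20.8%), against 13.9% of the other tested windows. Another gene's start site lay in it at 62 (16.9%), against 12.1%. A head-to-head neighbour on the other strand was present at 46 (12.6%), against 9.55%. Such pairs included hnrnpa1b with cbx5, h3f3d with zgc:112185, and rpl31 with cnot11. A window that holds several start sites collects the signal of all of them, so its level cannot be assigned to a gene.

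In all, 31 loci held several overlapping member windows, 72 windows together. Members were found on every chromosome, from 1.21% of the tested windows on chromosome 11 to 3.64% on chromosome 18. Unplaced contigs held 11 members (3.01%), against 0.843% of the other tested windows. These 11 include the 6 overlapping windows of the mir17-92 cluster on a single contig, so they are not 11 independent loci.

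A run of 4 member windows lay on repeats of the mir430 genes on chromosome 4, a microRNA family known in zebrafish for clearing maternal messages in the early embryo. Their accessions map to several places, so the values cannot be tied to a copy. At the first of these by level the mutant replicates stood at 10.95, 10.65 and 9.60, and the wildtype replicates at 10.73, 10.66 and 9.71. Replicate 3 was about 1 log2 unit lower in both groups, and the mutant minus wildtype difference was 0.03 (adjusted p = 0.981).

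As a group the most open windows had more signal in the mutants. Their median in the 6 mutant libraries lay between 10.47 and 10.67, and in the 6 wildtype libraries between 10.10 and 10.44, without overlap. Technical repeats of the same wildtype replicate differed by 0.291, 0.211 and 0.277 in this median, and those of the mutants by 0.0149, 0.167 and 0.07. The wildtype gaps were as wide as the difference between the groups.

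**Figure D2:**
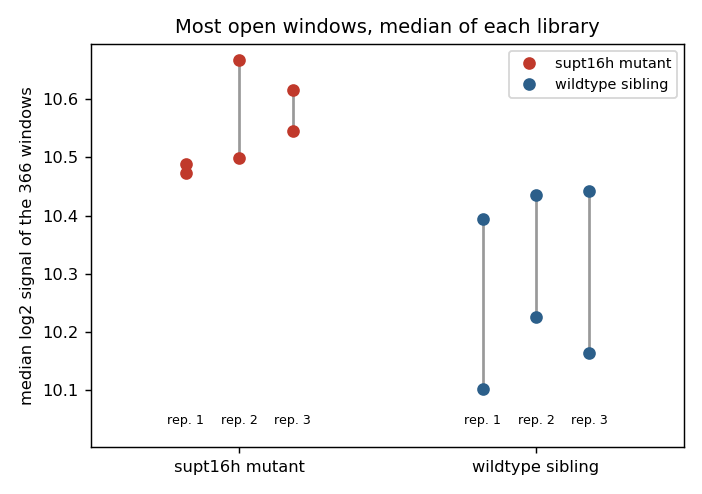
Median log2 signal of the 366 most open windows (y axis) in each library, with mutants left and wildtype siblings right. Points are libraries, and lines join the technical repeats of a biological replicate. The mutant libraries lie at 10.47 to 10.67 and the wildtype libraries at 10.10 to 10.44.

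Per window, the median difference of mutant minus wildtype was 0.16, with quartiles of 0.04 and 0.35, and a range of -0.48 to 0.96. Over all tested windows the median was -0.02. The difference was above 0 at 297 of the 366 windows. At an adjusted p below 0.05, 128 were called higher (35.0%), where 8.02% of all tested windows were called higher. Only 6 were called lower (1.64%), where 3.58% of all were called lower. All 3 mutant replicates lay above all 3 wildtype replicates at 181 windows (49.5%), against 15.5% of all tested windows, and below them at 13 (3.55%), against 14.0%.

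This shift of the whole class depended on the normalization. With the library distributions made alike, the median difference became -0.073 (cyclic loess) or -0.088 (quantile). Quantile normalization gives every library the same upper range, so it removes a shift shared by the highest windows by construction. Cyclic loess evens out differences that follow the level in a similar way. These fits therefore cannot decide whether the class shifted, and the same limit holds for the list medians given with them below. The calls became 56 higher and 81 lower with cyclic loess, and 52 higher and 98 lower with quantile normalization. With a replicate block, 190 were called higher and 14 lower. When members were picked by the level in one set of wildtype technical repeats and compared in the other set, 63 or 84 were called higher and 1 lower.

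The size of the difference did not follow the level within the class. The median difference was 0.15 for the 172 windows with a wildtype mean of 10 to 10.25, 0.17 for the 168 from 10.25 to 11 and 0.17 for the 26 at 11 or above.

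**Figure D3:**
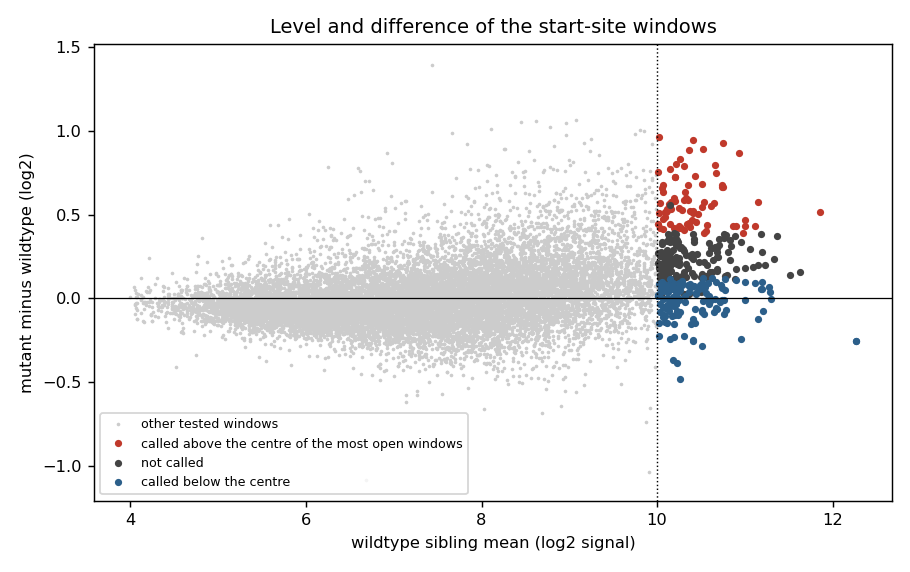
Wildtype mean log2 signal (x axis) and mutant minus wildtype difference (y axis, log2) of every tested window. Windows right of the dotted line at 10 are the 366 most open ones, coloured by whether they were called above the centre of the class (77), below it (138) or neither (151).

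To set the windows against each other, each replicate was centred on its own median over the 366 windows. This centre lay at 10.55 in mutants and 10.29 in wildtype siblings. A relative difference then says how a window moved against the class, whatever all of them share. Relative differences ran from -0.74 to 0.70, with an interquartile range of 0.315, against 0.188 over the other tested windows. On this scale 77 windows were called above the centre (21.0%), where 2.8% of all tested windows were, and 138 below it (37.7%), where 66.4% of all were.

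The split between above and below rests on where the centre is put. The group centres differed by 0.26 while the median window differed by 0.16, so the median relative difference was -0.10. With the centre placed on the median deviation of the windows, an alternative chosen after seeing the data, 92 were above and 78 below. The order of the windows does not depend on the centre. All 77 windows above and all 138 below kept their sign in each of 14 fits, and 49 of the 77 and 64 of the 138 were called in every one. The 14 include the main fit and are not independent. Setting library medians equal, blocking by replicate or dropping the level filter leaves the relative difference unchanged by construction, so no sign could turn in those fits.

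At the upper end stood genes of translation, RNA binding, the actin cytoskeleton and the early response to stimuli. The window of eef1a1l1, which encodes translation elongation factor 1 alpha, was just above the threshold in wildtype (chromosome 19, 43521417 to 43525417). Its mutant replicates stood at 11.01, 10.88 and 11.06, and its wildtype replicates at 9.99, 9.96 and 10.11. The mutants were 1.95-fold higher (0.96 ± 0.08, SE, adjusted p = 1.43e-06), and 0.70 above the centre.

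The RNA-binding protein gene hnrnpa0b (chromosome 14, 38503417 to 38507417) had 11.29, 11.40 and 11.38 in mutants and 10.42, 10.42 and 10.39 in wildtype, 1.93-fold higher in mutants (0.95 ± 0.07). The window of fosab, a Fos subunit of AP-1, had 11.66, 11.68 and 11.70 in mutants and 10.88, 10.76 and 10.63 in wildtype (0.93 ± 0.08; chromosome 20, 46648704 to 46652704). For mex3b, which encodes an RNA-binding protein with KH domains, the mutant replicates were 11.45, 11.43 and 11.35 and the wildtype replicates 10.56, 10.55 and 10.45 (0.89 ± 0.07). At each of these windows the lowest mutant replicate lay well above the highest wildtype replicate.

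Both beta-actin genes were in this group. The mutant replicates of actb2 stood at 11.12, 11.27 and 11.36 and its wildtype replicates at 10.33, 10.41 and 10.36 (0.88 ± 0.08). Those of actb1 stood at 11.14, 11.05 and 11.11 in mutants and at 10.30, 10.37 and 10.26 in wildtype (0.79 ± 0.07). The antiproliferative gene btg2, an early response gene, had 11.79, 11.78 and 11.82 in mutants and 11.00, 10.95 and 10.84 in wildtype (0.87 ± 0.07).

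The other 3 of the 10 most raised windows belonged to regulators. These were rap2b, a small GTPase of the Ras superfamily (11.09 ± 0.15 in mutants, 10.26 ± 0.06 in wildtype, SD, n = 3), cited4b, a co-activator that binds CBP and p300 (11.02 ± 0.05 and 10.22 ± 0.03), and pim1, a serine/threonine kinase (11.46 ± 0.01 and 10.66 ± 0.0035). All 10 were called on both scales and kept their relative call in every fit tried.

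mdkb, which encodes the heparin-binding growth factor midkine, had 9.78, 9.80 and 9.76 in mutants and 10.25, 10.28 and 10.26 in wildtype (chromosome 25, 7746138 to 7750138). Its log2 signal fell by 0.48 ± 0.07 in the mutants (SE, limma adjusted p = 0.000277). The transcription factor gene rfx4 had 9.94, 9.84 and 9.75 in mutants and 10.26, 10.22 and 10.21 in wildtype, and fell by 0.39 ± 0.08 (adjusted p = 0.00295). For plppr3a, of the phospholipid phosphatase related membrane proteins, the values were 9.80, 9.83 and 9.82 in mutants and 10.15, 10.21 and 10.19 in wildtype, and it fell by 0.37 ± 0.07 (adjusted p = 0.00295). These 3 were called lower in all 14 fits, which include those without each replicate. For this difference the fit centred on the median deviation is the main fit itself. Their mutant means were 9.78, 9.84 and 9.82, so they are in the class only through the wildtype values. All or most of those same values enter every fit, so the fits do not check the effect of that choice.

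Other windows called lower lay near the threshold of the test. ssuh2rs1 had 10.30, 10.08 and 10.30 in mutants and 10.48, 10.39 and 10.65 in wildtype, and fell by 0.28 ± 0.09 (adjusted p = 0.0442). hmgb1a, a high mobility group protein, had 10.70, 10.75 and 10.68 in mutants and 10.89, 10.98 and 10.97 in wildtype, and fell by 0.24 ± 0.07 (adjusted p = 0.0387).

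These calls lay so near the cutoff that leaving out any of several replicates ended them. The differences themselves stayed at -0.27 to -0.23 for hmgb1a and at -0.34 to -0.21 for ssuh2rs1. Both calls were also lost with library medians set equal (limma adjusted p = 0.0567 for hmgb1a and 0.0618 for ssuh2rs1). The hmgb1a call was lost without mutant replicate 2 (0.0612) or 3 (0.133) or wildtype replicate 1 (0.0569), 2 (0.165) or 3 (0.134). The ssuh2rs1 call was lost without mutant replicate 2 (0.184) or 3 (0.0585) or wildtype replicate 1 (0.104) or 3 (0.214). Both were called with the replicate block, hmgb1a at an adjusted p of 0.00221 and ssuh2rs1 at 0.00125.

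The histone gene hist2h2l and zgc:101846 share a locus on chromosome 10, with start sites 220 bp apart on opposite strands. At hist2h2l the mutant replicates stood at 10.07, 10.26 and 10.14 and the wildtype replicates at 10.32, 10.38 and 10.53, without overlap. Its difference of -0.25 ± 0.08 was not called (adjusted p = 0.0596), but was with the replicate block (0.00544) and, on the relative scale, it stood 0.51 below the centre with an adjusted p of 2.2e-05. The pair of zgc:158463 windows was also called below the centre (-0.51 each, limma adjusted p = 0.0452), but in only 8 and 7 of the 14 fits.

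**Figure D4:**
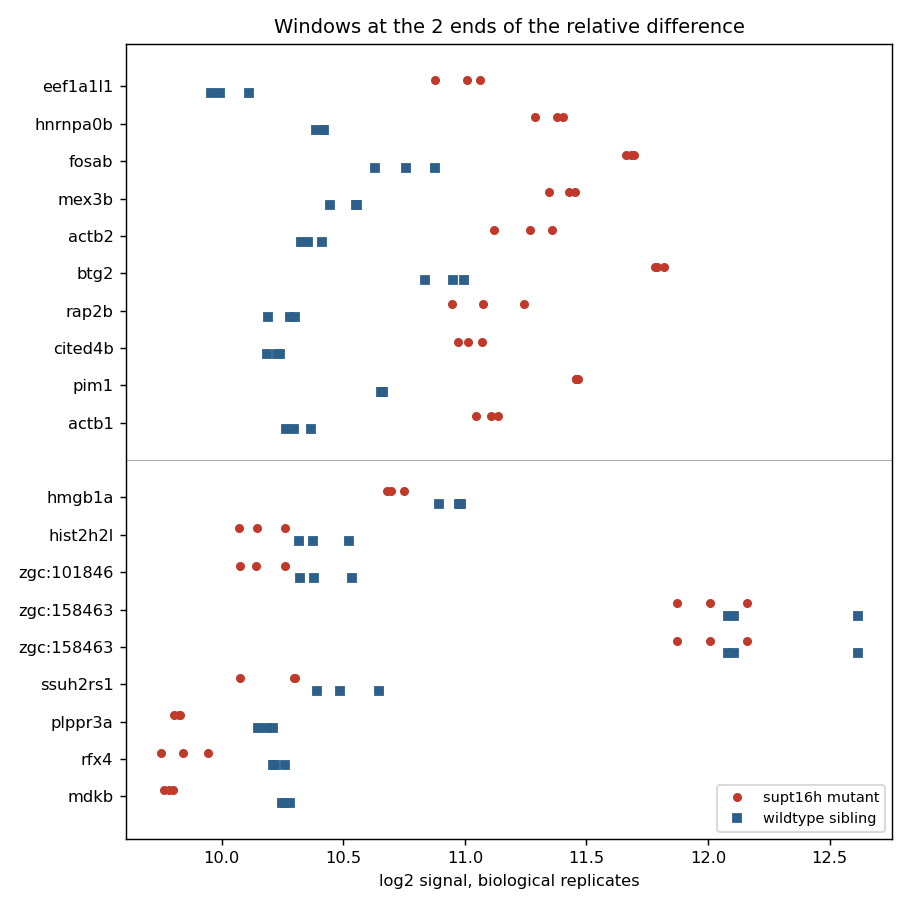
Log2 signal of each biological replicate (x axis) at the 10 windows most above the centre of the class and at those most below it, listed down the page, with mutants as circles and wildtype siblings as squares. At the upper 10 windows all mutant replicates lie above all wildtype replicates, and at the lower windows they lie below them except at the pair of zgc:158463 windows.

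Immediate early genes, a list added after values were seen, are transcribed within minutes of a stimulus. Of the 15 immediate early members, 11 were called higher in mutants and none lower, with a median difference of 0.43. On the relative scale 9 stood above the centre and 1 below. With cyclic loess or quantile normalization the median was 0.11 or 0.09, and 5 or 6 were called higher. jun, the partner of Fos in AP-1, had 11.28, 11.51 and 11.45 in mutants and 10.74, 10.71 and 10.55 in wildtype (0.75 ± 0.08, adjusted p = 1.48e-05). The list counts here and below stand beside shares of the whole class of 35.0% called higher, 1.64% lower, 21.0% above the centre and 37.7% below.

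The early response gene ier5 had 11.13, 11.05 and 11.31 in mutants and 10.52, 10.27 and 10.53 in wildtype (0.73 ± 0.09, adjusted p = 4.21e-05). egr1, an early zinc finger factor, had 11.17, 11.41 and 11.32 in mutants and 10.86, 10.95 and 10.80 in wildtype (0.43 ± 0.08, adjusted p = 0.0017). Family members differed in size. junbb and junba were 0.52 and 0.34 higher, while jund (0.23, adjusted p = 0.0994) and fosb (0.15, adjusted p = 0.225) were not called. With the replicate block 14 of the 15 were called higher, all but sik1. The salt-inducible kinase gene sik1 was the member below the centre, with 10.13, 10.35 and 10.05 in mutants and 10.25, 10.32 and 10.07 in wildtype. Of the 16 immediate early windows outside the class, 5 were called higher in mutants (fosl1a, fosl2, myca, ier2 and ier5l, 0.41 to 0.55) and klf2b lower (-0.25, adjusted p = 0.039). Relative to the centre of the class, 4 of the 16 were above and 8 below.

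The list of transcription factors and co-regulators holds immediate early genes such as junbb, fosab and mych, so its counts partly repeat those above. Of all 47 windows in it, 20 were called higher and none lower, where 35.0% of the whole class were called higher. Their median was 0.24, against 0.16 in the class, and became -0.02 with either cyclic loess or quantile normalization. The counts became 7 higher and 4 lower with cyclic loess, 8 and 7 with quantile normalization, and 29 and 0 with the replicate block. Relative to the class 12 stood above and 13 below, and 13 and 5 with the other centre. Outside the immediate early genes, the higher calls included irf2bpl (0.77 ± 0.08), irf2bp2a (0.57) and irf2bp1 (0.42), which encode co-regulators of the interferon regulatory factor 2 binding family. They also included id1 (0.55), an inhibitor of bHLH factors. The ETS gene elf2b (0.03) was not called and stood below the centre in each of 14 fits, whereas the zinc finger gene znf503 (0.60) stood above it in each.

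Chromatin genes did not move as a unit. Of 36 windows 13 were called higher and hmgb1a lower, close to the 35.0% called higher in the whole class. Their median difference was 0.18 (-0.11 with cyclic loess or quantile normalization), against 0.16 in the class. The counts became 4 higher and 9 lower with cyclic loess, 4 and 10 with quantile normalization, and 19 and 2 with the replicate block. On the relative scale 7 stood above the centre and 13 below it, and 9 and 6 with the other centre. Above it stood hmgn2, a nucleosome-binding high mobility group protein (10.92, 10.95 and 10.81 in mutants, 10.33, 10.36 and 10.23 in wildtype, 0.59 ± 0.08, adjusted p = 7e-05). So did arid1aa (0.58), a subunit of the BAF remodeller, baz1b (0.57), a bromodomain protein, and seta (0.56), a histone chaperone of the SET/NAP family. Below it stood tet3, a 5-methylcytosine dioxygenase, with 10.97, 11.07 and 11.04 in mutants and 11.14, 11.18 and 11.12 in wildtype (-0.12 ± 0.07, adjusted p = 0.32).

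The high mobility group genes ran in opposite directions. Of the 6 members, 4 were called higher, at hmgn2, hmgb2a (0.35) and both start sites of hmga1a (0.47 and 0.43), whose windows overlap. hmgb1a was called lower, and hmgb1b (-0.02, adjusted p = 0.918) was not called. The median of the 6 was 0.39, and 0.10 or 0.06 after cyclic loess or quantile normalization, with 1 higher and 2 lower calls each.

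The 8 histone windows had a median difference of 0.20 (-0.08 with cyclic loess and -0.09 with quantile normalization). Of these 3 were called higher, at cenpa, which encodes the centromeric histone H3, h3f3d (0.27) and h2afx (0.25). No histone window was called lower on the deposited scale, but 3 were, and none higher, with cyclic loess or quantile normalization, and 1 was with the replicate block or without mutant replicate 2. None stood above the centre. The 3 higher calls became 0 without mutant replicate 3 or without wildtype replicate 1 or 2, 1 without mutant replicate 2 or wildtype replicate 3, and 5 with the replicate block. h2afz and h2afva, which encode H2A.Z-type histones, share a locus with purba and lay close together at 11.25 and 11.24 in mutants and 11.20 and 11.18 in wildtype.

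Genes of replication and the cell cycle mostly had more signal in mutants. Of 9 windows 7 were called higher and none lower, with a median of 0.50 (0.24 with cyclic loess and 0.21 with quantile normalization), and 5 stood above the centre. The 9 include btg2 and cenpa, which are also counted with the immediate early and the histone genes. With cyclic loess or quantile normalization 5 were called higher, and 1 lower with cyclic loess. pcna, the sliding clamp of DNA polymerase, had 10.74, 10.67 and 10.82 in mutants and 9.94, 10.12 and 10.15 in wildtype (0.68 ± 0.08, adjusted p = 3.15e-05). mcm7, a subunit of the replicative helicase, had 10.51, 10.85 and 10.78 in mutants and 10.02, 10.11 and 10.03 in wildtype (0.66 ± 0.09, adjusted p = 9.2e-05). Promoters of opposite roles were both called, since the phosphatase cdc25b, which drives entry into mitosis, was 0.50 higher and cdkn1bb, an inhibitor of cyclin-dependent kinases, 0.52 higher. cdc14b (0.16, adjusted p = 0.207) and the inhibitor cdkn1d (0.09, adjusted p = 0.523) were not called.

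Genes that act on RNA and on translation had the highest medians among the lists of protein-coding genes. Of 12 windows of splicing and RNA-binding proteins 8 were called higher and none lower, with a median of 0.53 (0.29 with cyclic loess and 0.26 with quantile normalization, with 7 called higher in either). They included both overlapping windows of ybx1, a Y-box RNA-binding protein (10.83, 10.97 and 10.99 in mutants and 10.16, 10.15 and 10.31 in wildtype at the first). They also included cirbpa (0.67), a cold-inducible RNA-binding protein, hnrnpaba (0.63), sfpq (0.54), a splicing factor of paraspeckles, and hnrnpa0l (0.53), whose window overlaps that of hnrnpa0b. igf2bp3 (0.16) and igf2bp1 (0.14), which bind and stabilise mRNAs, and hnrpkl (0.09) were not called.

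Of 5 windows in the translation list 4 were called higher, eef1a1l1, eef2b (0.58), gspt1l (0.57), a termination factor, and pabpn1 (0.32). The last encodes a nuclear poly(A)-binding protein and was placed in this list by its symbol. eef2k, which encodes the kinase that inhibits elongation factor 2, had a difference of -0.01 (adjusted p = 0.971). The median of the 5 was 0.57, and 0.30 or 0.26 with cyclic loess or quantile normalization, each with 3 called higher and 1 lower.

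Of 13 cytoskeleton and adhesion windows 8 were called higher and none lower, with a median of 0.34 (0.11 and 0.08 with cyclic loess and quantile normalization). The counts became 4 higher and 0 lower with cyclic loess, and 3 and 2 with quantile normalization. Besides the actins these included cfl1 (0.45), which encodes the actin-severing protein cofilin, tubb4b (0.41), a beta-tubulin, and actr3 (0.30), of the Arp2/3 complex.

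Among microRNA genes the mir17-92 cluster stood out on the contig Un_KN150001v1. Its 6 windows overlap and are not independent. At mir17a-1 (14591 to 18591) the mutant replicates stood at 11.37, 11.40 and 11.49 and the wildtype replicates at 10.63, 10.73 and 10.86. The mutants were 1.60-fold higher (0.68 ± 0.08, adjusted p = 2.25e-05). The same measure was 0.67 at mir18a and mir19a, 0.68 at mir20a, 0.63 at mir19b and 0.60 at mir92a-1. The relative call of all 6 was kept in each of the 14 fits.

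Another microRNA locus, on chromosome 5, holds mir130c-2 (0.36 higher, adjusted p = 0.00292) and mir301b (0.47, adjusted p = 0.000498), and mir130c-1 was 0.42 higher (adjusted p = 0.00171). mirlet7i was also called (0.27, adjusted p = 0.0427). mir210, a microRNA of the hypoxia response, had 10.33, 10.43 and 10.11 in mutants and 10.43, 10.57 and 10.30 in wildtype (-0.14 ± 0.09, adjusted p = 0.364). Of all 16 microRNA windows 10 were called higher and none lower, with a median of 0.39 (0.13 and 0.10 with cyclic loess and quantile normalization), and 8 stood above the centre and 2 below. Of the 10, 6 were the overlapping mir17-92 windows, and the windows of mir130c-2 and mir301b overlap as well. These counts and this median thus weigh some loci several times. The counts became 7 higher and 2 lower with cyclic loess, and 6 and 2 with quantile normalization. With the replicate block the 4 mir430 windows were also called below, 6 in all.

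Signalling genes lay near the middle of the class. Of 35 windows 8 were called higher and none lower, with a median of 0.14 (-0.10 and -0.12 with cyclic loess and quantile normalization). The counts became 2 higher and 5 lower with cyclic loess, and 1 and 7 with quantile normalization. On the relative scale 6 stood above the centre and 15 below it, and 7 and 6 with the other centre. The 6 became 3 without mutant replicate 2 or 3 or wildtype replicate 2, and 2 without wildtype replicate 1. With the replicate block 16 were called higher. Those called included rap2b, ywhaba (0.52), a 14-3-3 protein, gnb1b (0.45), a G protein beta subunit, the Wnt receptor fzd4 (0.41) and axin2 (0.38), a target and inhibitor of Wnt signalling. slit1a (-0.15), an axon guidance ligand, prkacaa (-0.12) and prkar2aa (-0.11), subunits of protein kinase A, were not called and stood below the centre.

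The Notch pathway list was represented at several steps, from ligands to genes of the hairy family. The Delta ligand genes dla (0.18), dld (0.13) and dlb (-0.04), the receptor notch1a (-0.0023) and rbpjb (-0.01), the DNA-binding partner of the cleaved receptor, were not called. Of the hairy family genes, her6 was called higher (10.29, 10.41 and 10.47 in mutants, 10.15, 10.09 and 10.10 in wildtype, 0.28 ± 0.08, adjusted p = 0.0245) and hes6 (-0.08, adjusted p = 0.582) was not. The her6 call was lost without mutant replicate 2 or 3 or without any wildtype replicate. With the replicate block 2 were called higher, and with cyclic loess or quantile normalization none was higher and 2 were lower. None stood above the centre and 4 of the 7 stood below it, where 37.7% of the class and 66.4% of all tested windows did.

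All 6 circadian clock members stood below the centre, where 37.7% of the class and 66.4% of all tested windows were called below it. Their median difference was -0.06, with no call on the deposited scale. They were the PAR bZIP factors dbpa (-0.07), dbpb (-0.09) and tefb (-0.02), the period gene per1b (-0.14), arntl2 (-0.04) of the clock's activating arm and the repressor nr1d2b (0.06). per1b had 9.82, 10.01 and 10.06 in mutants and 10.02, 10.09 and 10.21 in wildtype, overlapping ranges. With cyclic loess or quantile normalization the median was -0.28 or -0.30 and 5 of the 6 were called lower.

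Members of the chaperone list and most of the ubiquitin list lay low in the class. The 4 windows of the chaperone list, ppiab (-0.01), ppib (0.08), dnaja2l (-0.05) and fkbp14 (0.05), were not called and all stood below the centre. Of these, ppiab, ppib and fkbp14 encode peptidyl-prolyl isomerases, and dnaja2l a co-chaperone. The fkbp14 window overlaps that of plekha8. Of the whole class 37.7% were called below the centre, and of all tested windows 66.4%. For the 4 windows the count below was 2 with the other centre, 2 without mutant replicate 3, and 2 or 1 with cyclic loess or quantile normalization. Of 6 ubiquitin and SUMO windows, the conjugating enzyme gene ube2d2 was called higher (0.43 ± 0.08, adjusted p = 0.00197), and 4 stood below the centre, among them otud7b (-0.22, adjusted p = 0.0707), a deubiquitinase. With cyclic loess or quantile normalization none of the 6 was called higher and 4 were called lower.

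**Figure D5:**
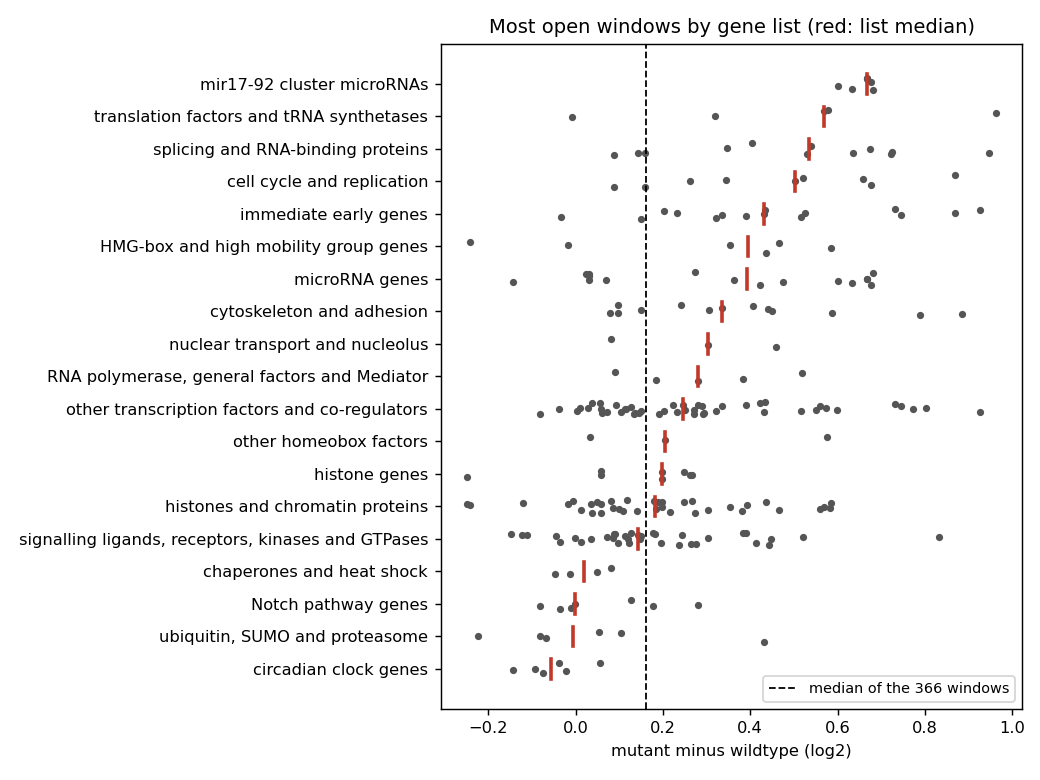
Mutant minus wildtype difference (x axis, log2) of each most open window by gene list, listed down the page, with the list median as a red bar and the median of all 366 windows, 0.16, as a dashed line. List medians run from 0.67 for the mir17-92 cluster to -0.06 for circadian clock genes.

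The 168 windows in no list had a median difference of 0.12 (-0.12 and -0.14 with cyclic loess and quantile normalization). Of these 41 were called higher and 5 lower, which became 13 and 52 with cyclic loess, 12 and 62 with quantile normalization, and 73 and 11 with the replicate block. On the relative scale 17 stood above the centre and 77 below it, and 26 and 53 with the other centre. Higher calls among them included odc1 (0.53), the rate-limiting enzyme of polyamine synthesis, and akirin2 (0.54), a nuclear protein needed for proteasome import.

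Zebrafish keep many gene copies from a genome duplication in the fish lineage, named with a and b. Of 97 member genes with a named partner in the table, 79 had a partner outside the class, with a median wildtype level of 8.86. The lowest partner was per1a at 5.20, while per1b was a member. Names were matched whole, so purbb and the window shared by LOC564840 and purba, both members, were not counted as a pair. The purba window was called below the centre in all 14 fits, and purbb above it in 8. In 9 of the counted pairs both copies were members. In 6 of the 9 both had the same sign relative to the centre, and in 4 of them both were called below it, bnip3la with bnip3lb, dbpa with dbpb, hmgb1a with hmgb1b and tle3a with tle3b. Of these, bnip3la was called below in 9 of the 14 fits and tle3a in 6, and the other genes in all 14. marcksl1b (0.59) stood above the centre and its partner marcksl1a (0.10) below it. The call of marcksl1a was lost with the other centre, and without mutant replicate 2 or 3 or wildtype replicate 3. Reads from near-identical stretches of such copies may be counted at either.

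The authors' deposited table gives its own p-values. By these, 166 of the 366 windows had an adjusted p below 0.05, of which 156 had more signal in the mutant columns and 10 less. All 134 windows called by limma were among them. The authors' log2 fold change is headed "Mut vs. WT", which names the mutant first but does not say which group was subtracted. For each of the 166 its sign was opposite to that of the difference used here. Read as mutant minus wildtype, that heading conflicts with the directions given here, which follow the names of the library columns. If the column names were exchanged, every direction given here would turn, and the class would be the most open windows of the mutants.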

How the data were processed

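The authors deposited normalized log2 values for 12 libraries in windows around start sites, with a log2 fold change and p-values, per the file headers. The submitters' processing notes name CASAVA 1.8, FastQC 0.11.2, HOMER 4.9 and the build GRCz10 (danRer10). The sources used here give no aligner, read filter, Tn5 shift or log transformation. Differences are on that scale and may understate changes. The files used here hold no counts, so depth is unknown and no counting interval is given.

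The 16555 entries were collapsed to 15674 windows by position (collapsed values differed by at most 0.219), and 548 of 567 unnamed entries were named through their RefSeq accession. Technical repeats were averaged, giving 3 biological replicates against 3. Windows with a mean of at least 4 were compared by limma (version 3.58.1, R 4.3.3, robust eBayes with a trend) and p-values were adjusted by Benjamini and Hochberg's method over all 15431, on the deposited scale and after centring each replicate on its median over the most open windows. The threshold was an adjusted p of 0.05. The procedure was tested on simulated data with noise drawn independently for each replicate. That test could not check calls where same-numbered replicates deviate together, as described below.

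Replicate numbers come from the column names. Same-numbered mutant and wildtype replicates deviated together (correlations of deviations 0.461, 0.513 and 0.534), so a fit with the number as a block was run beside the unblocked fit. The other combinations were -0.17 to -0.33. Deviations from a group mean cancel out within the group, so these must be negative on balance and add no support for the pairing. The other alternatives were normalization, level filters, thresholds, wildtype libraries kept apart for choosing members, and each replicate left out.

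Named windows were the 10 highest in wildtype, the 10 at each end of the relative difference with centred replicates on separate sides, all windows called lower, 4 on each side of the threshold, and up to 3 more per gene list. Other genes in the text illustrate their list and were picked after their values were seen. The members and lists were chosen with earlier results of these data known. Gene lists match symbols by pattern. Promoter sequences were not used here. A window that meets the naming rule at the lower end is counted but not reported here.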

Additional observations from a re-analysis of the deposited data

How the results depend on the processing

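Read depth is unknown, so its effect on precision cannot be judged, and the cause of each change below was not tested. Cyclic loess gave 56 higher and 81 lower calls, a median difference of -0.073, and 50 windows above and 91 below the centre. Quantile normalization gave 52 higher, 98 lower, a median of -0.088 and 79 below. With library medians set equal 3 windows were called lower. With the replicate block 14 were called lower. Picking members by wildtype replicate 1 or by replicate 3 and comparing with the other 2 gave 3 lower calls each. Picking by technical repeat 1 and comparing with repeat 2 gave 63 higher and 1 lower, and the reverse gave 84 and 1. Leaving out each replicate in turn gave 97 to 162 higher calls, 3 to 6 lower calls, a median of 0.143 to 0.215, 63 to 76 windows above the centre and 114 to 130 below. A wildtype mean of at least 9.5 gave 946 windows with 273 higher and 21 lower, and one raised by as much gave 116 with 41 and 2. Requiring 10 in each wildtype column left 211 windows, 3 of them lower. Choosing by the mutant mean gave 256 higher and 2 lower with a median of 0.25. The centre on the median deviation, chosen after seeing the data, gave 78 below. Of 923 named-window results under 13 alternatives, 831 stayed on their side of the threshold, 76 lost the call, 16 gained one and 0 reversed. Beyond the lower calls, the list counts and the windows given above, the replicate block ended no call among the named windows and added those of rimkla, ptmab and hexim1 on the relative scale. Planned motif and base composition measures were not run.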
